A study of Mus musculus with 8 samples.

Results

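Transcripts of Mylip and of 4 lipoprotein receptors, Vldlr, Lrp8, Lrp10 and Lrp1, were followed in naive mouse CD8+ T cells exposed to an agonist of the liver X receptors (LXR). These 5 genes were chosen by symbol, as a ubiquitin ligase, receptors that it degrades and relatives of those receptors, and all 5 had a row among the 41730 gene rows of the count table. The cells, isolated with a magnetic kit for naive CD8+ cells, spent 24 h in culture with either the synthetic agonist RGX-104 at 2 µM (4 libraries, numbered 5 to 8) or the solvent DMSO (4 libraries, numbered 1 to 4). RNA was read from the 3' end of polyadenylated transcripts. The labels used here give no strain, age or sex of the mice. They also do not say whether the 4 libraries of each kind stem from different animals or cultures, so a p-value here speaks of library-to-library spread, part of which may be technical.

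Mylip, also called Idol, is a membrane-associated ubiquitin ligase. It is a textbook target of LXR, and it marks lipoprotein receptors, VLDLR and the apolipoprotein E receptor encoded by Lrp8 among them, for breakdown in lysosomes, which lowers the uptake of lipoprotein cholesterol. This loop acts on receptor protein, so transcript counts report on the ligase and the receptors as messages and not on the amount of receptor at the surface. Lrp1 is a large endocytic receptor of the same family that Mylip is not known to degrade, and Lrp10 is a smaller relative found on endosomes and the Golgi apparatus. In naive T cells, lipoprotein uptake is one source of membrane cholesterol.

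The stretches just before the annotated starts of Mylip and Lrp10 are shown because these are the members that were measured with a good number of reads in all 8 libraries (RefSeq, GRCm38.p6). For Mylip it is chr13:45389492-45389741 on the + strand, and for Lrp10 it is chr14:54463897-54464136 on the + strand, both written 5′ to 3′. Capitals mark exact matches on either strand to the GC box GGGCGG, the CCAAT box CCAAT (printed as ATTGG where it lies on the other strand) and the TATA box TATAAA, none of which overlap each other.
Mylip: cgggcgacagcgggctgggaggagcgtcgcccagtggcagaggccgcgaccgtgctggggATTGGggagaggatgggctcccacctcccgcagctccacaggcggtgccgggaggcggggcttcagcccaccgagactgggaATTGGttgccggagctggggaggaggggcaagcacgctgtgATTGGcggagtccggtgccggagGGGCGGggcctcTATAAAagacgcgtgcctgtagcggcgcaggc
Lrp10: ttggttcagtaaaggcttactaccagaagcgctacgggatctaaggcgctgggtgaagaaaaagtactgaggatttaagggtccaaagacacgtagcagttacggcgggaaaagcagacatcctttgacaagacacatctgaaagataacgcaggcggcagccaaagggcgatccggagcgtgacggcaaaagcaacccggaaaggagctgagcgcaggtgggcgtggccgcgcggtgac

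The Mylip stretch was 71.2% G or C, the Lrp10 stretch 55.0%, and the median over all 32544 distinct promoter stretches of 250 bases 52.4%. The printed Lrp10 stretch has 240 bases and overlaps the antisense gene Gm10366. That of Mylip has 250 bases and overlaps no other annotated gene. Mylip held a TATA box 32 bases before its start, a GC box at 44 bases and 3 CCAAT boxes at 67, 108 and 190 bases. Of all stretches 12.3% held a TATA box, 33.0% a GC box and 33.8% a CCAAT box. Lrp10 held none of these motifs. The direct repeat bound by LXR, 2 copies of AGGTCA set 4 bases apart, was not found before any start of the 5 members on either strand. This held for exact copies, which 0.0154% of all stretches hold, and for copies with up to 2 mismatches, which 2.57% hold. The same search gave no match before the starts of Abca1 and Srebf1 either. A missing match says only that these letters do not stand in this window.

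Across the series, total counts lay between 16196217 and 28287445 in RGX-104 libraries and between 16308726 and 24353797 in DMSO libraries. Genes detected numbered 10442 to 10990 with RGX-104 and 9772 to 10908 with DMSO, with the lowest 3 values in DMSO replicates 1 to 3. Zeros were far more frequent among low genes than these totals allow for independent reads. The number of apparent molecules behind a library, estimated from those zeros, was 182139 to 342244, so that 1 apparent molecule weighed 2.92 to 5.49 CPM (counts scaled to one library size). Of the markers of the labelled cell, 5 CD8 T cell genes summed to 2450 to 2780 CPM with RGX-104 and 2460 to 2720 CPM with DMSO, and 5 naive T cell genes to 2470 to 2990 CPM and 2790 to 3010 CPM. B cell markers summed to 74.4 to 87.4 CPM and 21.0 to 111 CPM, and macrophage and monocyte markers to 8.05 to 24.1 CPM and 6.21 to 31.0 CPM. Stromal and endothelial markers summed to 62.8 to 115 CPM and 64.6 to 125 CPM, and neutrophil markers to 0 to 11.4 CPM and 0 to 35.7 CPM. Pecam1 made up nearly all of the stromal and endothelial sum, with means of 92.95 CPM with RGX-104 and 86.95 CPM with DMSO. Col1a1, the other gene of that list, averaged 0.483 and 2.33 CPM, so the sum does not measure stromal cells. CD4 and regulatory T cell markers summed to 1.59 to 3.68 CPM and 2.5 to 6.38 CPM. Dendritic cell markers summed to 0 to 6.21 CPM and 0 to 5.23 CPM, and natural killer markers to 0 to 0.712 CPM and 0 CPM. The platelet markers Pf4 and Ppbp, the natural killer marker Ncr1 and the dendritic cell markers Itgax and Xcr1 were at 0 in all libraries. In RNA from many cells, fewer cells of a type and less RNA per cell cannot be told apart.

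Mylip transcript rose 3.17-fold with the agonist. Its level was 261.9, 223.8, 253.6 and 274.7 CPM in RGX-104 replicates 5 to 8 and 99.2, 76.2, 73.5 and 70.9 CPM in DMSO replicates 1 to 4. The lowest treated library was thus well above the highest control library, and DMSO replicate 1 stood a little above its group. The means were 253.5 ± 21.6 CPM with RGX-104 and 79.9 ± 13.0 CPM with DMSO (SD, n = 4 each). The log2 fold change was 1.66 ± 0.18 (SE), with an approximate 95% interval of 1.23 to 2.10 (edgeR quasi-likelihood test, adjusted p = 3.41e-05). In apparent molecules this was 65.3 to 94.1 per RGX-104 library and 13.9 to 21.9 per DMSO library. These numbers are not scaled to the library, so their contrast is not the fold change. RGX-104 libraries held 249525 to 342244 apparent molecules in all, and DMSO libraries 182139 to 316703.

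Of the 5 members, 3 had enough counts to be tested, and Mylip alone passed, as higher. Among all 10037 tested genes, 11 passed (0.11%), of which 10 were higher (0.0996%) and 1 was lower (0.00996%). Mylip ranked 5 by p-value. Among other LXR targets, Abca1, which exports cholesterol, had a log2 fold change of 5.68 ± 0.65, its relative Abcg1 of 3.36 ± 0.29 and the lipogenic transcription factor gene Srebf1 of 2.39 ± 0.16 (edgeR, adjusted p = 8.64e-05, 2.56e-06 and 3.45e-08). The change of Mylip was the smallest of these 4 as a log2 value. Abca1 averaged 345 ± 34.6 CPM with RGX-104 and 6.65 ± 5.56 CPM with DMSO, with 1 DMSO library at 0, and a fit with robust dispersion no longer called it (adjusted p = 0.757). Abcg1 reached 4.70 with DMSO replicate 4 as the only control.

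**Figure D1:**
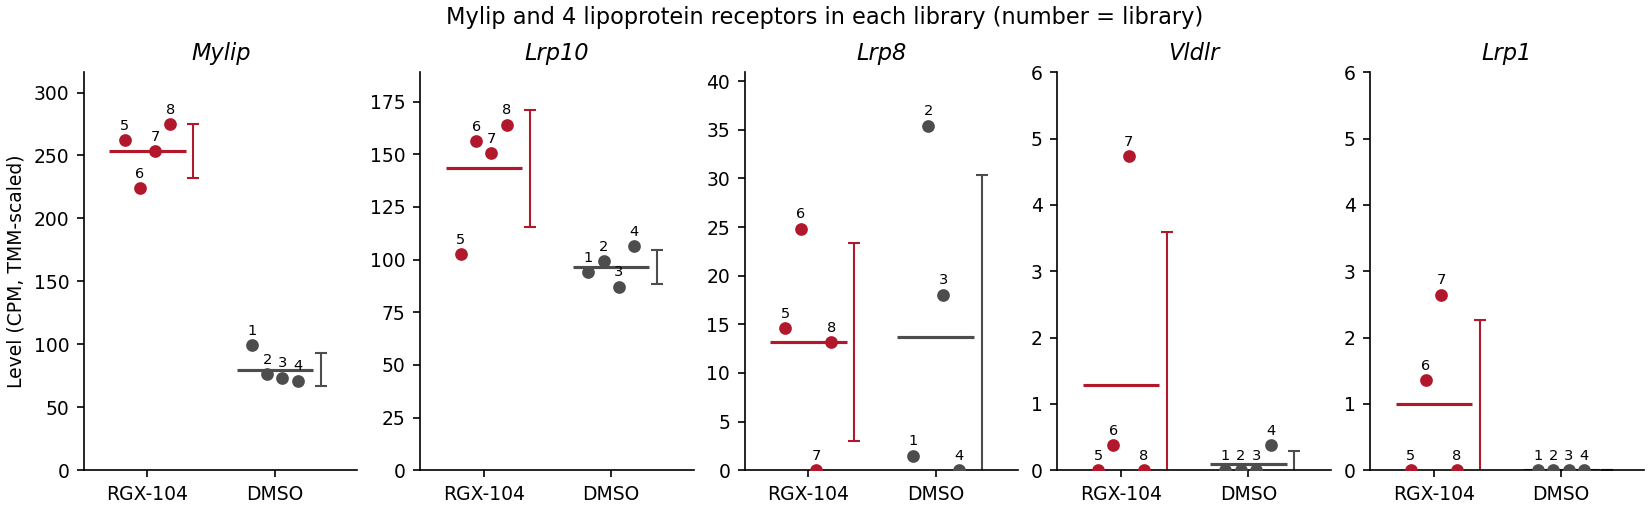
Levels of Mylip and the 4 receptors in CPM, 1 panel per gene with its own axis from 0; each point is a library with its number, RGX-104 left and DMSO right, horizontal lines are means and bars show 1 SD (n = 4 each). Mylip separates the groups, Lrp10 overlaps through RGX-104 replicate 5 at 102.6 CPM, and Lrp8, Vldlr and Lrp1 have libraries at 0.

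Lrp10, a receptor thought to move between endosomes and the Golgi apparatus, was measured well in every library. It stood at 102.6, 156.2, 150.4 and 164.2 CPM in RGX-104 replicates 5 to 8 and at 94.1, 99.2, 87.1 and 106.2 CPM in DMSO replicates 1 to 4. RGX-104 replicates 6, 7 and 8 exceeded every DMSO library, whereas replicate 5 fell inside the DMSO range. The means were 143 ± 27.8 CPM with RGX-104 and 96.7 ± 8.10 CPM with DMSO (SD, n = 4 each), a log2 fold change of 0.57 ± 0.20 with an approximate 95% interval of 0.07 to 1.07. This did not pass (edgeR, unadjusted p = 0.0116, adjusted p = 1.00), and 382 of 10037 tested genes (3.81%) had an unadjusted p under 0.05. An exact two-sided permutation test of its CPM gave p = 0.0571, where 4 against 4 libraries cannot go below 0.0286.

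Lrp10 and the number of genes detected ran alike in some libraries and not in others. RGX-104 replicate 5 had the fewest genes detected of its group (10442) and the lowest Lrp10, while DMSO replicate 4 had the most of its group (10908) and the highest Lrp10. DMSO replicate 2, with the fewest of all (9772), had the second highest Lrp10 of the DMSO libraries. DMSO replicate 3, with the second most genes detected of its group (10194), had the lowest Lrp10 of all (87.1 CPM). RGX-104 replicates 6 and 7 had fewer genes detected (10748 and 10803) than DMSO replicate 4 but more Lrp10. A link between genes detected and Lrp10 was not tested as a cause. A fit that held the genes detected as an added term put the log2 fold change of Lrp10 at 0.40 ± 0.27, and a fit with DMSO replicate 4 as the only control put it at 0.44 ± 0.31, and neither passed. Mylip stood at 1.75 ± 0.24 and 1.85 ± 0.27 in the same fits and passed in both (edgeR, adjusted p = 0.00288 and 1.28e-04).

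Lrp8, the apolipoprotein E and reelin receptor that Mylip is known to degrade, was low and patchy. It had 14.6, 24.8, 0 and 13.2 CPM in RGX-104 replicates 5 to 8 and 1.51, 35.4, 18 and 0 CPM in DMSO replicates 1 to 4. Each group held 1 library at 0, the highest value of all was in DMSO replicate 2, and the groups overlapped over almost their whole range. The log2 fold change of -0.06 ± 1.4 (edgeR, adjusted p = 1.00) carries an interval of -3.49 to 3.37, so neither a large rise nor a large fall of this receptor could have been detected. No library held more than 7.23 apparent molecules of Lrp8, and its direction turned in several alternative fits.

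Vldlr, the other degraded receptor in the group, was close to undetected. It had 0, 8, 77 and 0 counts in RGX-104 replicates 5 to 8, or 0, 0.374, 4.73 and 0 CPM, and 0, 0, 0 and 6 counts in DMSO replicates 1 to 4, or 0.378 CPM in the last of these. The difference in mean level, 1.18 CPM, came down to 0.0306 CPM without RGX-104 replicate 7. Even in that library the counts amount to 1.49 apparent molecules. Vldlr did not reach the minimum of counts for a test.

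Lrp1, a clearance receptor abundant on macrophages and hepatocytes, had 0, 29, 43 and 0 counts in RGX-104 replicates 5 to 8 and no count in the 4 DMSO libraries. Its level in the 2 RGX-104 libraries with counts was 1.36 and 2.64 CPM, less than 1 apparent molecule each (0.395 and 0.830). For independent reads, 0 of 78701219 DMSO counts would allow up to 0.0381 CPM, but 1 apparent molecule already weighs 2.92 CPM or more. Presence of Lrp1 in either group was therefore at the limit of detection, and no test was made. Without RGX-104 replicate 7 its mean difference of 1.00 CPM was 0.452 CPM.

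The level of Mylip relative to the messages of the 4 receptors was higher in each RGX-104 library than in any DMSO library. Mylip CPM by itself separated the groups upward, which was so for 209 of 10037 tested genes in all (2.08%). The summed level of the 4 receptors was 117.2, 182.7, 157.8 and 177.3 CPM in RGX-104 replicates 5 to 8 and 95.6, 134.6, 105.1 and 106.6 CPM in DMSO replicates 1 to 4, and Lrp10 made up 90.2% ± 4.52 and 88.7% ± 12.6 of it (SD, n = 4 each). The log2 ratio of Mylip to that sum was 1.16, 0.29, 0.68 and 0.63 in the RGX-104 libraries and 0.05, -0.82, -0.52 and -0.59 in the DMSO libraries. The means were 0.69 ± 0.36 with RGX-104 and -0.47 ± 0.37 with DMSO (SD, n = 4 each), a difference of 1.16. That difference is mainly one between Mylip and Lrp10. With only Vldlr and Lrp8 summed, both near the limit of detection, the difference was 0.18. Because Mylip is part of the ratio and was chosen with its rise known, no test was made. The ratio compares counts of different transcripts, so its change between libraries can be read but its absolute size cannot.

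Within the RGX-104 group Mylip and Lrp10 did not rank the libraries alike. RGX-104 replicate 5 had the second highest Mylip and the lowest Lrp10, and replicate 6 had the lowest Mylip and the second highest Lrp10. Mylip per Lrp10 was accordingly 2.55 in RGX-104 replicate 5 and 1.43, 1.69 and 1.67 in replicates 6 to 8, against 0.668 to 1.05 in the DMSO libraries.

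**Figure D2:**
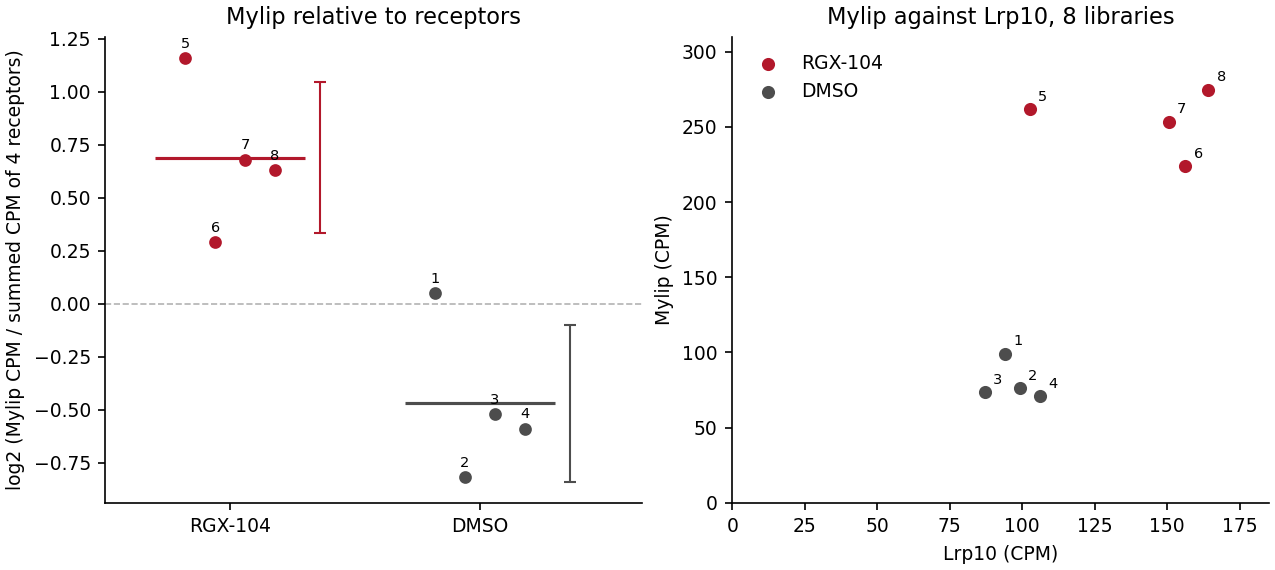
Left, the log2 ratio of Mylip to the summed CPM of Vldlr, Lrp8, Lrp10 and Lrp1 in each library, with group means and 1 SD (n = 4 each); right, Mylip against Lrp10 in CPM, with the number of each library. The ratios run from 0.29 to 1.16 with RGX-104 and from -0.82 to 0.05 with DMSO, and in the right panel the groups separate along the Mylip axis, not along the Lrp10 axis.

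Of 12 further members of the receptor family, 4 could be tested, all with a log2 fold change below 0, and 0 passed (edgeR, with 0 calls by DESeq2 or limma-voom). Among all tested genes 0.11% passed, so 0 calls among 4 genes say little about the family. An unadjusted p under 0.05 was found for 0 of these 4 genes, beside 3.81% of all tested genes (edgeR). Their median was -0.53, beside 0.01 over all tested genes, of which 4933 of 10037 were below 0. The median rests on 4 genes, and the log2 fold changes were -0.65 ± 0.41 for Lrp6, -1.78 ± 2.27 for Lrp5 and -0.15 ± 0.26 for Ldlrad4. Sorl1, a sorting receptor between Golgi apparatus and endosomes, had 131.2, 82.3, 103.2 and 109.9 CPM in RGX-104 replicates 5 to 8 and 138.1, 165.7, 130.4 and 128.7 CPM in DMSO replicates 1 to 4. RGX-104 replicate 5 lay among the DMSO values and the other 3 lay below them (log2 fold change -0.40 ± 0.20, edgeR adjusted p = 1.00). Lrp6, a co-receptor of Wnt ligands, was at 37.3 ± 11.6 CPM with RGX-104 and 58.5 ± 35.7 CPM with DMSO, where DMSO replicate 2 reached 107 CPM. Ldlrad4, a membrane protein that dampens TGF-β signalling, was at 71.0 ± 18.8 and 78.8 ± 11.5 CPM. The fourth tested relative was Lrp5, another Wnt co-receptor, named here after its values were seen, at 1.33 ± 1.11 and 4.58 ± 3.69 CPM. This is about the level of 1 apparent molecule or less. Lrp1b, Lrp2, Lrp3, Lrp11 and Ldlrad3 had no count in any library, and Lrp4, Lrp12 and Ldlrad1 were too low to test.

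Among proteins known to work with Mylip, none of 6 tested genes passed, beside 0.11% of all tested genes (edgeR, with 0 calls by DESeq2 or limma-voom). An unadjusted p under 0.05 was found for 3.81% of all tested genes and, in this list, for 1 gene (edgeR). That gene was Ube2d3, which encodes an E2 enzyme of the UBE2D family that passes ubiquitin to this ligase. It stood at 229.1, 169.7, 136.2 and 166.2 CPM in RGX-104 replicates 5 to 8 and at 116.9, 110.8, 130.1 and 116.4 CPM in DMSO replicates 1 to 4. The groups did not overlap, which was so upward for 209 of 10037 tested genes (2.08%), and the log2 fold change was 0.56 ± 0.19 (edgeR adjusted p = 1.00). Its relatives Ube2d1 and Ube2d2a, named after their values were seen, had log2 fold changes of 0.41 ± 0.50 and -0.11 ± 0.22. Myl12a, a myosin regulatory light chain of the kind for which Mylip was first named, was at 539 ± 42.5 CPM with RGX-104 and 471 ± 61.4 CPM with DMSO, and Myl12b at 131 ± 23.2 and 143 ± 40.7 CPM. Usp2, a deubiquitinase reported to oppose Mylip, was at 7.38 ± 5.18 and 8.27 ± 9.47 CPM, also named after its values were seen. Myl9 had no count.

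Chaperones and adaptors of the receptors did not pass either, with 7 of 10 tested, 4 above 0 and 3 below. Snx17, which returns receptors from endosomes to the surface, was at 47.1 ± 8.4 CPM with RGX-104 and 54.9 ± 16.9 CPM with DMSO. Mesd, a chaperone for the folding of the receptors' propeller domains, was at 26.7 ± 8.26 and 38.8 ± 16.9 CPM. In both genes the groups overlapped. Gulp1 had no count.

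Genes of endosomal sorting, which carry marked receptors to lysosomes or recycle them, were measured for 15 of 16 members, 10 above 0 and 5 below, with a median log2 fold change of 0.14 and 0 calls. Vps37b and Vps28, subunits of the ESCRT-I complex, were at 427 ± 41.6 and 155 ± 28.3 CPM with RGX-104 and at 392 ± 59.8 and 141 ± 22.2 CPM with DMSO. Vps4a, the ATPase that takes ESCRT complexes apart, was at 65.0 ± 22.1 and 52.8 ± 18.3 CPM. Of the receptor ligands 3 of 10 were tested and 0 passed. Calr, the chaperone calreticulin and an LRP1 ligand, was at 337 ± 41.8 CPM with RGX-104 and 293 ± 38.2 CPM with DMSO, Apoe at 24.3 ± 9.07 and 16.6 ± 14.7 CPM, and App at 9.33 ± 5.90 and 3.71 ± 3.32 CPM. Reln, A2m and Pf4 had no count.

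The proteases that cut receptors of this family were all 8 tested, 5 above 0 and 3 below, with a median of 0.13 and 0 calls. Furin, a proprotein convertase that cleaves LRP1 on its way to the surface, was at 106 ± 33.9 CPM with RGX-104 and 80.9 ± 28.9 CPM with DMSO. Psenen, a subunit of γ-secretase, was at 86.9 ± 15.2 and 86.8 ± 47.3 CPM, and the sheddase Adam17 at 58.2 ± 9.98 and 62.9 ± 18.8 CPM. Over the 52 genes of adaptors, partners, sorting, ligands and proteases, 39 were tested, with a median log2 fold change of 0.17, 1 gene at an unadjusted p under 0.05 (Ube2d3) and 0 past the adjusted threshold by edgeR, DESeq2 or limma-voom. Among all 10037 tested genes, 3.81% had an unadjusted p under 0.05 and 0.11% passed (edgeR). At those shares, 0 calls in lists of this size say little about their genes. These figures do not show that the genes were unchanged.

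**Figure D3:**
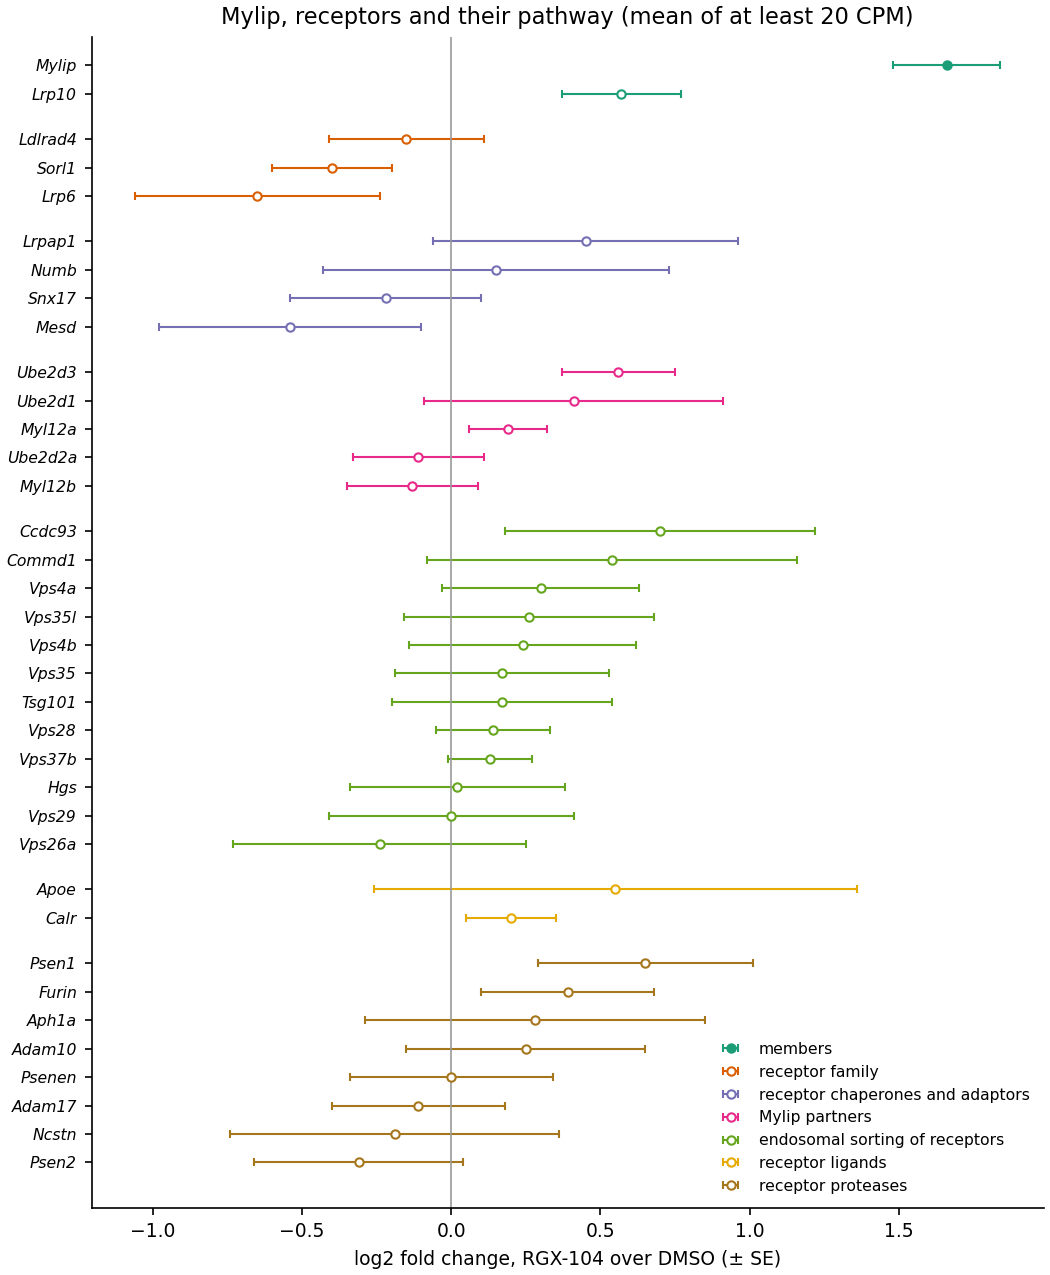
Log2 fold change of RGX-104 over DMSO with its SE for Mylip, Lrp10 and the listed genes reported here with a mean of at least 20 CPM, grouped by list; filled points passed the edgeR test at an adjusted p under 0.05. Mylip at 1.66 is the filled point, and the open points lie between -0.65 (Lrp6) and 0.70 (Ccdc93).

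The profile of Mylip over the 8 libraries was nearest to that of Fasn, the fatty acid synthase. Likeness was measured as the root mean square difference of log2(CPM + 1), each gene centred on its own mean, over 6177 tested genes with a mean of at least 20 CPM. It was 0.124 for Fasn, which had 269.6, 222.7, 250.1 and 232.1 CPM in RGX-104 replicates 5 to 8 and 107.7, 78.2, 83.3 and 65.3 CPM in DMSO replicates 1 to 4. DMSO replicate 1 was the highest control library and RGX-104 replicate 6 the lowest treated library for both genes. Of the genes reported here, the next were Tomm40, a pore subunit of mitochondrial protein import (0.399), Mid1ip1, an activator of acetyl-CoA carboxylase (0.412), and Srebf1 (0.414). Tomm40 averaged 101 CPM with RGX-104 and 51.9 CPM with DMSO and did not pass (log2 fold change 0.96 ± 0.23, edgeR adjusted p = 0.395), nor did Mid1ip1, at 40.0 and 18.6 CPM (1.11 ± 0.42, adjusted p = 1.00). Such a measure over 2 groups of libraries mostly reflects the size of the difference between them. For Lrp10 the nearest profiles were those of Llgl1 (0.144), Junb (0.159), Coa5 (0.162), Cic (0.162) and Zbtb44 (0.170), none of which passed.

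**Figure D4:**
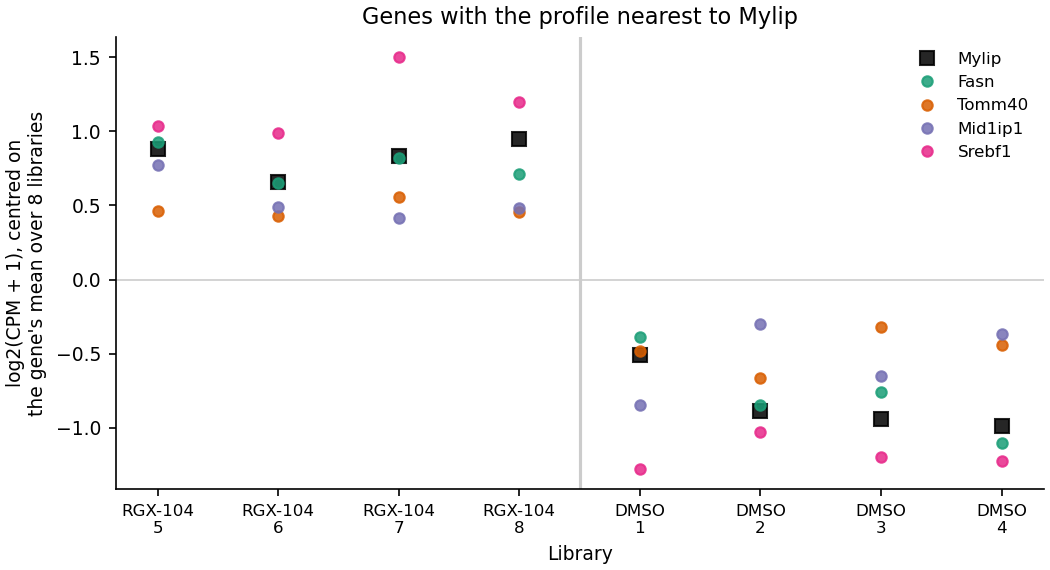
Log2(CPM + 1) of Mylip and 4 of the genes with the nearest profiles, each centred on its own mean over 8 libraries, RGX-104 libraries left and DMSO libraries right. Fasn lies closest to Mylip (root mean square difference 0.124), Tomm40 and Mid1ip1 have smaller steps between the groups, and Srebf1 has a larger one.

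On GRCm38 the members lie on 5 different chromosomes (GENCODE M21). Mylip spans chromosome 13, 45389742 to 45412022, on the + strand, in up to 7 exons, and overlaps no other annotated gene. Its nearest tested protein-coding neighbours were Atxn1, 138 kb away, with a log2 fold change of 0.23 ± 0.35, and Dtnbp1, 388 kb away, with -0.68 ± 0.55, and neither passed. Lrp10 spans chromosome 14, 54464137 to 54471497, on the + strand, also in up to 7 exons. Its nearest tested neighbour was Mmp14, 18.8 kb away, with -0.78 ± 2.27 at only 2.58 CPM with RGX-104 and 4.42 CPM with DMSO. Farther away were Mrpl52 at 34.4 kb (-0.13 ± 0.24) and Prmt5 at 35.7 kb (-0.11 ± 0.24). Vldlr lies on chromosome 19, 27216484 to 27254231, Lrp8 on chromosome 4, 107802261 to 107876840, both on the + strand, and Lrp1 on chromosome 10, 127538161 to 127621148, on the - strand in up to 89 exons. All 5 are protein-coding, with 2 annotated 3' ends of coding transcripts for Mylip and for Lrp10, 4 for Lrp8 and Lrp1 and 5 for Vldlr. Antisense genes overlap Lrp8, Lrp10 and Lrp1. Of these, Lrp8os2 and Gm16217 had 0 counts in every library, while Lrp8os1 and Gm10366 had no row under these symbols among the counted genes. Without a stated strand setting, reads from a gene and its antisense partner cannot be told apart.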

How the data were processed

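The members and gene lists were chosen with earlier results of these data known. The deposited values are raw read counts per gene symbol, 1 column per library, per the file headers and the values, from QuantSeq 3' libraries, per the labels' protocols. The submitters' processing notes list GRCm38, DESeq2 1.4, R 4.1.0 and STAR 2.7.8a but assign no role to them. Counting tool, annotation, strand setting and molecular identifiers: not given in the sources used here. Groups came from the library names, and no pairing or batch is labelled.

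The test was edgeR 4.0.16's quasi-likelihood test, run in R 4.3.3, with TMM normalization, filterByExpr with a minimum count of 10, the group as the only term, and Benjamini-Hochberg adjustment over 10037 genes, with a threshold of 0.05. The fit was tested on simulated data. SE is the log2 fold change divided by the root of the F statistic, and intervals rest on it. CPM are TMM-scaled. Limits from counts cover counting error only, whereas the intervals of the fold changes include the spread between libraries. The chi-square per degree of freedom between replicate libraries of a group was 68.6 to 163. It treats reads as independent, and with 49.2 to 115 reads per apparent molecule it does not show whether replicates came from separate RNA samples. Apparent molecules were estimated per library from zeros among genes of 2 to 20 CPM under Poisson sampling, as in earlier work on these data. Alternatives were RLE size factors, no filter, DESeq2 1.42.0, limma-voom 3.58.1, robust dispersion, genes detected as a covariate, each library left out, and DMSO replicate 4 as the only control.

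The genes named are the 5 members, the called and the 3 highest other members of each list, the 5 profiles nearest to Mylip, and Abca1, Abcg1 and Srebf1; exceptions are marked. Some genes that these rules name are not reported here: 1 is in no count of the receptor list, and the others are included in the counts of their lists. Promoters come from RefSeq and gene positions from GENCODE M21; all 5 members had a promoter window.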

Additional observations from a re-analysis of the deposited data

Results flagged for a closer look

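Of 55 groups of 4 libraries examined (members, comparison genes and named list genes), 3 contained a value far outside the range of their remaining libraries; chance alone flags about 1 group in 20, here 2.8. Vldlr stood at 4.73 CPM in RGX-104 replicate 7, against 0 to 0.374 CPM in the other RGX-104 libraries, and at 0.378 CPM in DMSO replicate 4, against 0 in the other DMSO libraries. A group with a count in only 1 library is always flagged, as for Vldlr with DMSO, so the chance rate does not apply to that flag. Vps28, a subunit of ESCRT-I, stood at 197 CPM in RGX-104 replicate 7, against 138 to 146 CPM in the other RGX-104 libraries.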

How the results depend on the processing

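Mylip was called as higher under every alternative run, with a log2 fold change of 1.61 to 1.85, and the number of members called stayed at 1. Leaving out each library gave 1.61 to 1.78 for Mylip, 0.49 to 0.69 for Lrp10 and -0.57 to 1.01 for Lrp8, and mean differences of 0.0306 to 1.6 CPM for Vldlr and 0.452 to 1.33 CPM for Lrp1. Lrp10 kept its direction and was not called in any fit (0.40 to 0.69). Lrp8 turned to 0.71 with limma-voom, to 4.48 with genes detected as a covariate, to 11.02 with DMSO replicate 4 as the only control, a library at 0 for this gene, and to values above 0 without DMSO replicates 2 or 3 or RGX-104 replicate 7; none of these fits called it, and apart from the control at 0 the cause was not tested. Without a filter Vldlr and Lrp1 could be tested and were not called (edgeR, adjusted p = 0.872 and 0.430). The log2 ratio of Mylip to receptors differed by 1.00 to 1.33 between the groups with each library left out, and by 0.18 when Vldlr and Lrp8 alone were summed, both of which are near the limit of detection. No alternative called a gene of the receptor, adaptor, partner, sorting, ligand or protease lists. Over the whole table DESeq2 called 44 of 12160 genes (0.362%), against 11 by edgeR. With DMSO replicate 4 as the only control, which is then assumed to vary like the RGX-104 libraries, the median log2 fold change of all genes was 0.132. Changes of genes under about 1 apparent molecule per library, 2.92 to 5.49 CPM, were not measurable at this depth. No paired analysis was possible because the library numbers are not shared between the groups.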
